A study of Homo sapiens with 8 samples.

Results

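Leukocyte integrins are the adhesion receptors by which white blood cells hold on to vessel walls, matrix and targets. The 10 genes that encode their main subunits, ITGAL, ITGAM, ITGAX, ITGA4, ITGA5, ITGAE, ITGB1, ITGB2, ITGB3 and ITGB7, were examined in a list of PML::RARA binding sites. The peaks were those labelled with one of these genes in the deposited annotation, together with the peaks without any gene label whose centre lay within 50 kb of such a peak. This gave 26 peaks of the 15412 in the list, of which 7 carried the label of a member and 19 carried no label. The symbols ITGA5, ITGAE and ITGB3 did not occur in the list.

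The binding sites were mapped by Cut&Run, in which a nuclease tethered to an antibody releases the DNA around a bound protein for sequencing. The cells were U937-PR9, a myeloid cell line of monocytic character with a PML::RARA transgene under a zinc-inducible promoter. Induced cells had received 100 μM ZnSO4 for 5 h and uninduced cells water for the same time. The series holds 8 libraries, 2 replicates for each pairing of an anti-PML-RARA or anti-RARA antibody with induced or uninduced cells, and the analysed list comes from induced cells with the first of these antibodies. The peaks of the other antibody and of uninduced cells were not analysed here. Both conditions carry the transgene, zinc was given only together with its induction, and all cells are of 1 line, so that PML::RARA and zinc cannot be told apart. Each peak has a single set of values and none per replicate, and how these values were drawn from both replicates is not stated. Replicate error is thus unknown, and no test was run. Depth is unknown. Expression was not analysed here, and the myeloid identity of the cells could not be checked against marker genes. The height of a peak is the largest signal within it, its total signal is the sum over its width, and its apex is the middle of the interval of largest signal. A rank of 1 is the highest or widest peak of the 15412, and peaks of equal value share a rank.

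An integrin is a pair of an alpha and a beta subunit, and the partner decides where it works. ITGB2 encodes CD18, the beta chain of LFA-1 (with ITGAL, CD11a), Mac-1 (with ITGAM, CD11b) and CD11c/CD18 (with ITGAX). CD11b appears as myeloid precursors mature and is a standard marker of differentiation when leukemic promyelocytes are treated with retinoic acid. ITGB1 pairs with ITGA4 in VLA-4, which binds VCAM1 and fibronectin, and with ITGA5 in the main fibronectin receptor. ITGB7 pairs with ITGA4 in the gut-homing receptor and with ITGAE, CD103, in cells that hold on to E-cadherin. ITGB3 is best known from platelets, where it forms the fibrinogen receptor. The promoters of the CD11 and CD18 genes are known to be served by PU.1, a myeloid factor of the ETS family, whose preferred sites contain a GGAA core. RARA and other nuclear receptors bind to short elements such as AGGTCA and GGGTCA.

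The DNA at or near the apex of 6 of the 7 labelled peaks is shown first, because these windows hold the sequences named in the motif results. Motifs were counted in 200 bp at the apex, exons included, so some lie outside the printed stretch. Each line gives up to 150 bases of hg19 from the window around the apex, read along the strand of the gene. Annotated exons were left out, and at ITGB2, where some annotated transcript covers the whole window, 30 bases beside the apex were kept. Capitals mark the motifs searched, on either strand: the ETS core GGAAGT, its PU.1 form GAGGAAGT, which contains the core, the nuclear receptor elements AGGTCA and GGGTCA, the RUNX site TGTGGT, the AP-1 site TGAGTCA, the C/EBP site TTGCNNAA, the GC box GGGCGG and the E box CACGTG.
ITGAM promoter peak, chr16:31271140-31271287, plus strand: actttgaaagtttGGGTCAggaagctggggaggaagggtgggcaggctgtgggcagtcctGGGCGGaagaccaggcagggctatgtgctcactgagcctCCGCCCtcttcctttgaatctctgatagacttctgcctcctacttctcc
ITGAX promoter peak, chr16:31365847-31365996, plus strand: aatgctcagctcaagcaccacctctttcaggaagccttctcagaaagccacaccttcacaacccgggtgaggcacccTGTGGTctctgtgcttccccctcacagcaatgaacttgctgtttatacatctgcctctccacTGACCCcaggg
ITGB2 promoter peak, chr21:46340871-46340900, minus strand: tgcaacccaccACTTCCTCcaaggaggagc
ITGA4 promoter peak, chr2:182321458-182321607, plus strand: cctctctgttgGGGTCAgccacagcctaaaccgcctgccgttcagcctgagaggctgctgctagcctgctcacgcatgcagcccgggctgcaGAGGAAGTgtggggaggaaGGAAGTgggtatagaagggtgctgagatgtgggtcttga
ITGB1 promoter peak, chr10:33247254-33247328, minus strand: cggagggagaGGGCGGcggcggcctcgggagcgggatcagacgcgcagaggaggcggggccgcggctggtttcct
ITGB7 promoter peak, chr12:53602774-53602923, minus strand: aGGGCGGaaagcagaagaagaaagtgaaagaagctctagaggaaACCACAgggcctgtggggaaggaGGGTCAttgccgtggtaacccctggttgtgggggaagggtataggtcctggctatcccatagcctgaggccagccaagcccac

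Among the unlabelled peaks, 4 are shown because they were the highest (upstream of ITGAL), lay next to a labelled peak (upstream of ITGAX, at the start of ENSG00000289930) or lay at further start sites of ITGB2. Other unlabelled peaks close to ITGB2 starts or to a labelled peak are not shown. The 4 include every unlabelled window with GAGGAAGT, so they do not represent the unlabelled peaks in their motifs.
ITGAL upstream peak, chr16:30470182-30470331, plus strand: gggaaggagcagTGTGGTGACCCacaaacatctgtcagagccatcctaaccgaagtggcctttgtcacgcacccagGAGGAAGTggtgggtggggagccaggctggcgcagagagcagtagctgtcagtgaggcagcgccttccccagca
ITGAX upstream peak, chr16:31363890-31363958, plus strand: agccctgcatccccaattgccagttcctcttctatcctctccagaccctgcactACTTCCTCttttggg
ITGB2 far upstream peak, chr21:46351142-46351291, minus strand: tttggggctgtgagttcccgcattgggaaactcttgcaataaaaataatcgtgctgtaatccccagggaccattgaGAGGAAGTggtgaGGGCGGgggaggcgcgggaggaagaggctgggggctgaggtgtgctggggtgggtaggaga
ITGB2 intron peak, chr21:46334199-46334319, minus strand: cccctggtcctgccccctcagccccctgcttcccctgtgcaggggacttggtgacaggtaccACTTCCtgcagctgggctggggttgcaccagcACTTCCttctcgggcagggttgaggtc

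The beta chain shared by all CD11 molecules, ITGB2, had the most peaks of the 10 genes. Its gene (ENSG00000160255, minus strand of chromosome 21 from 46305868 to 46351904) accounted for 9 of the 26 peaks, and 7 of these had their apex inside the gene. The labelled peak covered 46339374 to 46341480 and culminated 2 bp inside an annotated transcript start. Its height of 39 ranked 2104 and its width of 2107 bp ranked 862, above 94.4% of the list. Upstream of it along the gene, a second peak was as large. This unlabelled peak, from 46346064 to 46348229, had height 41 (rank 1727) and width 2166 bp (rank 780), and its apex lay 73 bp downstream of a start site of ITGB2-AS1, a noncoding RNA read from the opposite strand. Between both lay a small peak from 46345376 to 46345745 with height 22 (rank 9138) and width 370 bp (rank 13772).

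The remaining ITGB2 peaks lay on either side. The peak from 46350957 to 46351654 culminated 688 bp inside the most distant starts of the gene, with height 24 (rank 7817) and width 698 bp (rank 9249). Inside intron 1 of the canonical transcript, 3 peaks followed each other closely. The one from 46333624 to 46334609 had a height of 39 (rank 2104), the same as the labelled peak, with a width of 986 bp (rank 6082), and it culminated 46 bp before a shorter ITGB2 transcript. Its neighbours were near the floor of the list, with heights of 17 (rank 13294) and 16 (rank 14278). They lay from 46334733 to 46335018, with a width of 286 bp (rank 14706), and from 46335211 to 46335638, with a width of 428 bp (rank 13014). Beyond both ends of the gene, the rule took in a peak of height 29 (rank 5211) and width 1320 bp (rank 3516) from 46300730 to 46302049, with its apex outside any annotated gene. It also took in one of height 17 (rank 13294) and width 1257 bp (rank 3931) from 46387408 to 46388664 within SLX9.

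ITGB2 therefore held several peaks and not a single one. The labelled peak and the one at the ITGB2-AS1 start were wider than the median of all labelled peaks, 1108 bp. The others with an apex inside the gene were narrower. The 7 peaks with an apex inside the gene summed to a total signal of 77095, and 71 of the other protein-coding genes (0.364%) held at least as much. By number of peaks inside the gene, 74 others of 19535 protein-coding genes reached 7 (0.379%). Neighbours under 1 kb apart were counted singly, at ITGB2 and at all other genes. Some of the 7 apices lay inside the gene only by transcripts that start upstream of the canonical one. The labelled ITGB2 peak had 8 unlabelled peaks within 50 kb. Of all 7169 labelled peaks in the list, 51.5% had none and 38 had at least 8, this one included (0.530%).

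**Figure D1:**
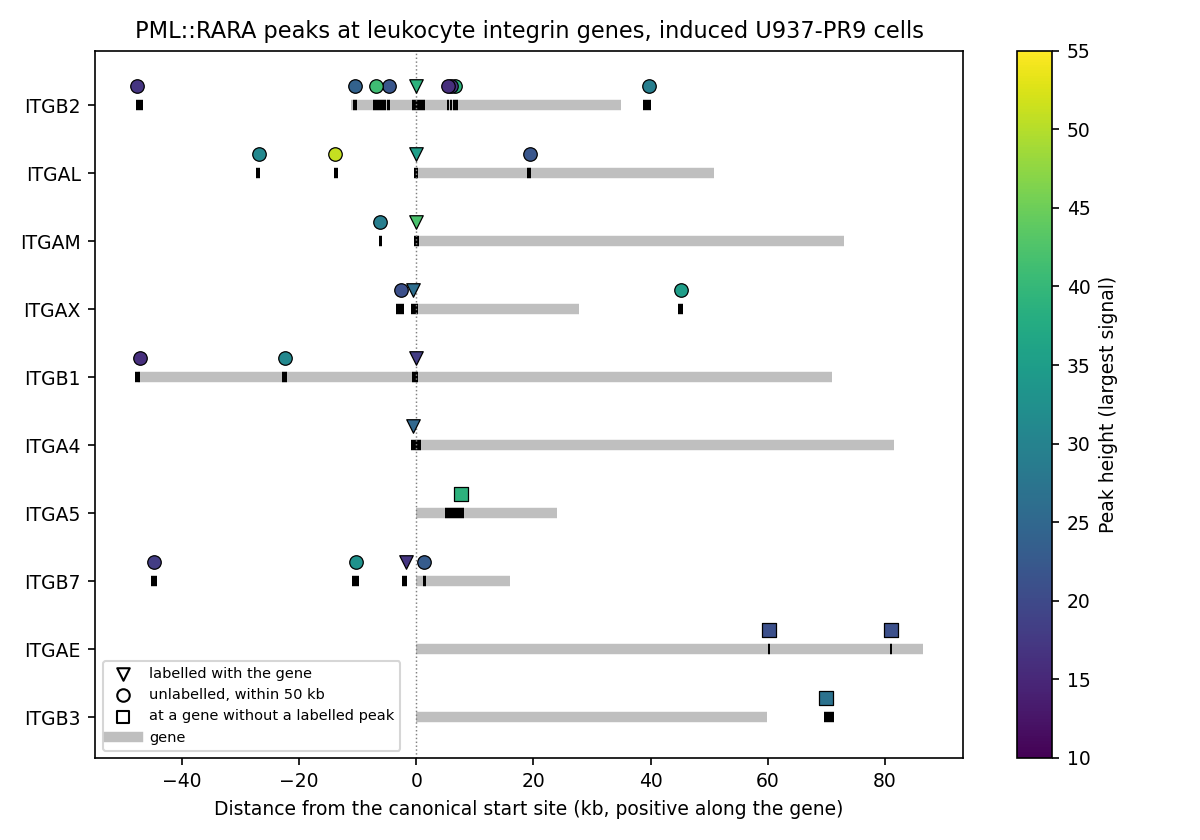
Peaks at the 10 genes by distance from the canonical start site in kb, positive along the gene. Grey bars are genes, black bars the extent of each peak, and markers its apex, coloured by height. Triangles carry the label of the gene, circles are unlabelled peaks taken in by the 50 kb rule, and squares are peaks over or nearest to a gene without a labelled peak. ITGB2 stands out with 9 peaks, whereas ITGA4 has 1.

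The 3 CD11 alpha chains among the members, ITGAL, ITGAM and ITGAX, each had 1 labelled peak at their 5′ end, all on chromosome 16. ITGAM, the CD11b gene (ENSG00000169896, plus strand from 31271288 to 31344213), had the highest labelled peak of all members. It lay from 31270990 to 31271818 with a height of 42 (rank 1553), above 88.8% of the list, and a width of 829 bp (rank 7707), and culminated 74 bp before a transcript start. An unlabelled peak from 31264996 to 31265501 culminated 6136 bp before the gene, with height 29 (rank 5211) and width 506 bp (rank 11939). The 72.9 kb gene itself held no apex. After the end of the labelled ITGAM peak, the list had no peak for 91.2 kb.

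ITGAX, the CD11c gene (ENSG00000140678, plus strand from 31366455 to 31394320), had a lower labelled peak, from 31365659 to 31366792. Its height of 26 (rank 6677) equalled the median of all labelled peaks, its width was 1134 bp (rank 4807), and it culminated 534 bp before the nearest start. Only 1.24 kb separated it from the unlabelled peak at 31363036 to 31364419, with height 21 (rank 9879) and width 1384 bp (rank 3167). The apex of that peak lay over a gene known only by its identifier, ENSG00000289930, 6 bp from its start. The other unlabelled peak counted to ITGAX, from 31411156 to 31411974, lay in intron 5 of the neighbouring ITGAD, which encodes the fourth CD11 chain. It had height 35 (rank 3088) and width 819 bp (rank 7811), and was thus higher than the peak at the ITGAX promoter. ITGAD carried no label.

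ITGAL, the CD11a gene (ENSG00000005844, plus strand from 30483979 to 30534888), lies 787 kb from ITGAM by the centres of their labelled peaks. The labelled peak, from 30483750 to 30484355, was narrow, with a width of 606 bp (rank 10485), and had a height of 35 (rank 3088) and culminated 4 bp inside a transcript start. The highest of all 26 peaks lay upstream of ITGAL. From 30469972 to 30470655, with its apex 13.7 kb before the nearest ITGAL start, it reached a height of 51 (rank 551), above 96.0% of the list, at a width of 684 bp (rank 9426), and its apex overlapped no annotated gene. A peak in intron 11, from 30503006 to 30503607, had height 22 (rank 9138) and width 602 bp (rank 10535). The unlabelled peak from 30456668 to 30457474, with height 31 (rank 4397) and width 807 bp (rank 7960), culminated 52 bp before SEPHS2, which encodes a selenium enzyme. It was in the set only by its distance.

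ITGB1 (ENSG00000150093, minus strand of chromosome 10 from 33176201 to 33294720), the beta chain of VLA-4 and of the fibronectin receptor, had a weak labelled peak. It lay from 33246826 to 33247922 with its apex on an annotated start site, and its height of 18 (rank 12401) exceeded that of 13.7% of the list, at a width of 1097 bp (rank 5111). Further upstream, 22.3 kb away by the centres, a higher unlabelled peak lay from 33269289 to 33270143, with height 31 (rank 4397) and width 855 bp (rank 7416), next to a start site of the divergent noncoding ITGB1-DT. The last peak, from 33294246 to 33295193, had height 16 (rank 14278) and width 948 bp (rank 6466) and lay 354 bp downstream of the most distant start of ITGB1.

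ITGA4 (ENSG00000115232, plus strand of chromosome 2 from 182321929 to 182403667) was the only labelled member without an unlabelled peak within 50 kb. Its peak, from 182321209 to 182322975, was wide, at 1767 bp (rank 1585), and of middle height, at 25 (rank 7226). It culminated 397 bp before a transcript start, and the nearest other peak of the list was 150 kb away. The 81.7 kb gene held no apex.

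ITGB7 (ENSG00000139626, minus strand of chromosome 12 from 53585107 to 53601066), which partners ITGA4 or ITGAE, had the lowest labelled peak. From 53602590 to 53603433, it had a height of 17 (rank 13294), above 7.36% of the list, and a width of 844 bp (rank 7535). It culminated 1782 bp before the nearest start, farther than in any other labelled member. Intron 1 held an unlabelled peak of height 23 (rank 8433) and width 422 bp (rank 13102), from 53599422 to 53599843. The other 2 peaks of the set lay over neighbours. One, from 53610881 to 53612075 in RARG, the gene of retinoic acid receptor gamma, had height 33 (rank 3709) and width 1195 bp (rank 4355). The other, from 53645223 to 53646337 at the start of MFSD5, had height 18 (rank 12401) and width 1115 bp (rank 4965).

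The 3 members without a label differed among themselves. ITGA5 (ENSG00000161638, minus strand of chromosome 12 from 54789045 to 54813050), the alpha chain of the fibronectin receptor, held an unlabelled peak wider than those of all labelled members. It reached from 54804979 to 54808187 with a width of 3209 bp (rank 162), above 98.9% of the list, and a height of 39 (rank 2104). Its apex lay in intron 2, 7.63 kb into the canonical transcript and 1790 bp downstream of the start of a shorter one. Its total signal was 30514, more than that of any labelled member peak, of which the largest, at ITGB2, was 22347. ITGAE (ENSG00000083457, minus strand of chromosome 17 from 3617922 to 3704482), the CD103 gene, held only 2 small peaks, both of height 21 (rank 9879). They lay in intron 29 (3623343 to 3623665, width 323 bp, rank 14314) and in intron 19 (3644115 to 3644386, width 272 bp, rank 14820), and none lay at the canonical start. ITGB3 (ENSG00000259207, plus strand of chromosome 17 from 45331193 to 45391109) held no apex, and the nearest peak, of height 27 (rank 6155) and width 1668 bp (rank 1832), lay 9632 bp past its end at a start site of EFCAB13 (45400741 to 45402408).

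By label, 7 of the 10 members had a promoter peak, against 30.8% of 19535 protein-coding genes. This count describes a chosen list, and no test was made of it. With an apex within 1 kb of an own start site it was also 7, against 39.4% of all coding genes, with ITGAE at an internal start in place of ITGB7. Within 3 kb it was 9, against 42.1%, and only ITGB3 was missing. Inside the gene an apex was found for 6, against 28.8%. Among peaks at or above the median height of the list, 5 members kept a labelled peak, against 18.0% of coding genes. These were ITGAM, ITGAX, ITGAL, ITGA4 and ITGB2.

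The labelled member peaks ranged in height from 17 to 42 with a median of 26, the same as the median of all 7169 labelled peaks. Their median width was 1097 bp, between 606 bp at ITGAL and 2107 bp at ITGB2, beside 1108 bp for all labelled peaks. Height and width did not go together within them. ITGAL was high and narrow, ITGAM was high and of middle width, ITGA4 was wide and of middle height, and only ITGB2 was both high and wide. The 19 unlabelled peaks had a median height of 24 and a median width of 819 bp, beside 23 and 634 bp for all 8243 unlabelled peaks, and 13 of the 19 were wider than that median. The total signal as a percentage of height times width, a measure of how flat a peak is, was 27.2 to 33.9% in the labelled member peaks, beside a median of 34.7% in all labelled peaks.

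**Figure D2:**
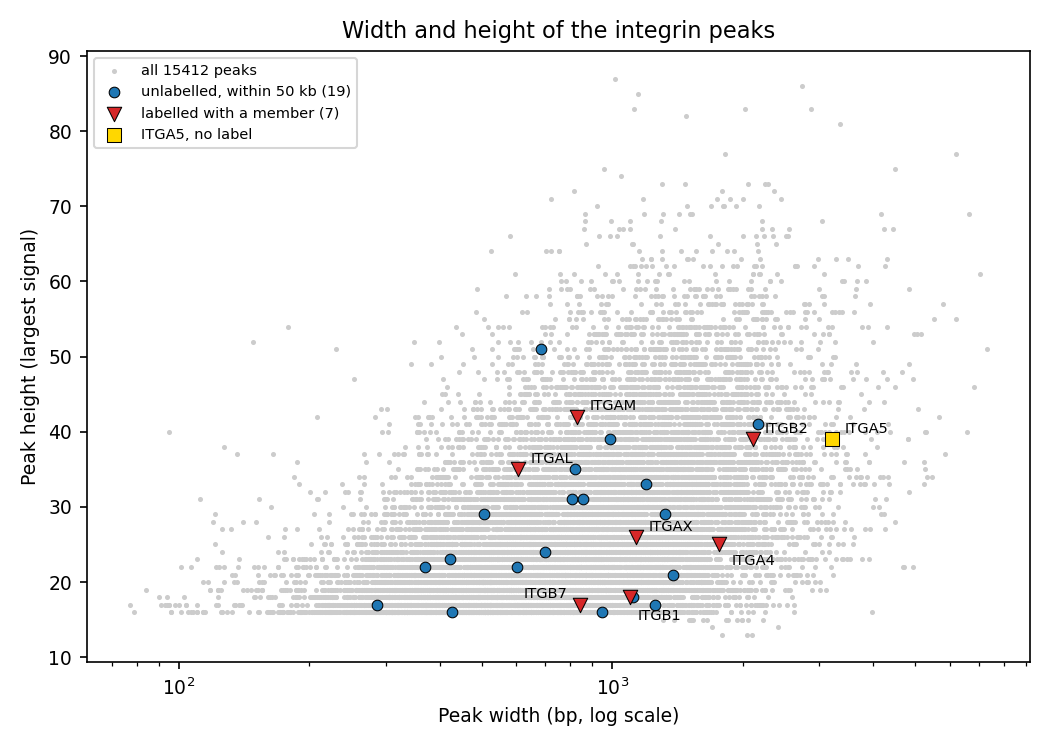
Width in bp on a log axis and height of each peak in the list (grey), with the 7 labelled member peaks as red triangles, the 19 unlabelled ones as blue circles and the unlabelled ITGA5 peak as a yellow square. ITGB2 (2107 bp, height 39) and ITGA5 (3209 bp, height 39) lie to the right, ITGAM (829 bp, height 42) and ITGAL (606 bp, height 35) to the left at similar height.

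The labelled integrin peaks differed from most labelled peaks in base composition. The ratio of observed to expected CpG, which is high in CpG islands, had a median of 0.18 in the 7 peaks and of 0.76 in all labelled peaks. It was 0.12 at ITGAX, 0.16 at ITGAL and ITGB7, 0.18 at ITGAM and 0.35 at ITGB2. ITGA4 (0.74) and ITGB1 (0.85) lay among the bulk of the list. The value of ITGB2 or a lower one was found in 5 of the 7 and in 762 of all 7169 labelled peaks (10.6%). That limit was taken after the values were seen, as the highest of the 5, so the count of 5 follows from its choice. Those 762 peaks had a median height of 25 and a median width of 776 bp. ITGB2, its 3 partners among the members and ITGB7 were thus on the low side, and ITGA4 and ITGB1 were on the high side.

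**Figure D3:**
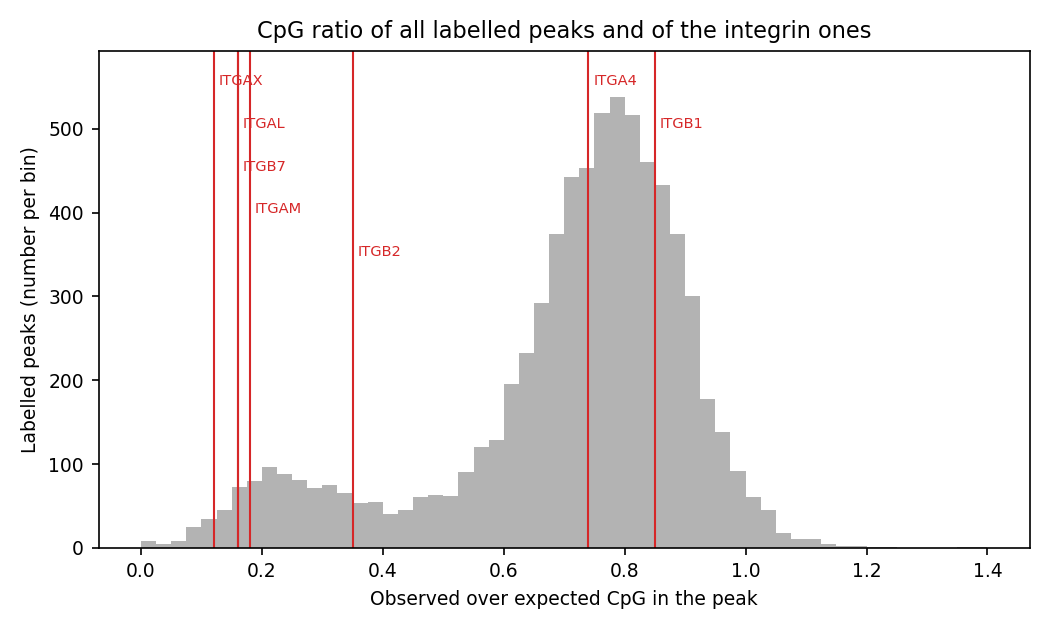
Ratio of observed to expected CpG in all 7169 labelled peaks (grey histogram, number of peaks per bin), with red lines at the 7 labelled integrin peaks. The histogram has 2 humps, and 5 of the 7 lines, from 0.12 to 0.35, fall in the smaller one.

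The motifs were counted in windows of 200 bp at the apex. The PU.1 form GAGGAAGT was present in 3 of the 7 labelled windows (42.9%, Wilson 95% interval 15.8 to 75.0%), among them ITGB2 and ITGA4, and in 3.60% of all labelled peaks. Among the 762 labelled peaks of low CpG ratio, a class defined after the values were seen, its share was 13.1%, and 2 of the 5 integrin peaks of that class held it. Among the 19 unlabelled windows it occurred in 3 (15.8%), beside 8.90% of all unlabelled peaks. These 3 were the highest ITGAL peak, the upstream ITGAX peak and the far upstream ITGB2 peak, all printed above. The shorter ETS core GGAAGT was found in 11 of the 26 windows (42.3%, 25.5 to 61.1%), beside 30.4% of all peaks. The labelled windows of ITGAM, ITGAX, ITGB1 and ITGB7 held neither GAGGAAGT nor GGAAGT. The bare GGAA core was not counted, and it does occur in the printed ITGAM and ITGAX stretches.

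The receptor element GGGTCA was found in 5 of the 7 labelled windows (71.4%, 35.9 to 91.8%), beside 11.2% of all labelled peaks. They were those of ITGAM, ITGAX, ITGB2, ITGA4 and ITGB7. In the unlabelled windows it was found in 7 of 19 (36.8%), beside 12.9%, which gives 12 of 26 in all (46.2%, 28.8 to 64.5%), beside 12.1% of the list. In the low CpG class the share of GGGTCA was 13.3%, and 4 of the 5 integrin members of that class held the site. A link with base composition was not tested. The related element AGGTCA occurred in 4 of the 26 (15.4%), beside 13.7%. These were 0 of the 7 labelled windows, beside 9.29% of all labelled peaks, and 4 of the 19 unlabelled ones, beside 17.6%. The counts of GGGTCA stayed at 5 and 12 in windows of 400 bp, where its share of all peaks was 21.0%. These counts depended on where the window was placed. In 200 bp around the middle of the peak in place of the apex, GGGTCA was found in 0 of the 7 labelled windows, beside 11.2% of all labelled peaks, and in 2 of the 26 (7.69%), beside 11.9% of the list, and so below the background. GAGGAAGT was found there in 0 of the 7, beside 2.20%, and in 2 of the 26, beside 4.79%. AGGTCA went the other way, with 2 of the 7 (28.6%), beside 8.12%, and 8 of the 26 (30.8%), beside 12.4%. The GC box GGGCGG was found in 3 of the 7 labelled windows (ITGAM, ITGB1 and ITGB7), beside 61.7% of all labelled peaks. In the low CpG class its share was 17.6%, and 2 of the 5 integrin peaks of that class held it. The AP-1 site TGAGTCA was found in 0 of the 7 labelled windows, beside 3.86% of all labelled peaks, and in 5 of the 19 unlabelled ones (26.3%), beside 16.1% of all unlabelled peaks. Around the middle of the peak the latter were 2 of 19 (10.5%), beside 12.8%. At the apex, the RUNX site was found in 2 of the 7 labelled windows, beside 9.01% of all labelled peaks and 25.9% of the low CpG class. In the unlabelled windows it was found in 4 of 19, beside 28.2%. The C/EBP site was found in 0 of the 7, beside 5.47%, and in 4 of the 19, beside 13.1%. The E box was found in 0 of the 7, beside 7.48%, and in 3 of the 19, beside 5.81%. Every one of the 26 windows held at least 1 of the motifs, whereas 15.2% of all windows held none. The intervals cover the counting of peaks only, a match of letters is not a bound site, and the low counts were not tested.

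The 16 integrin genes outside the 10 had no labelled peak, beside the 7 of 10 given above. By an apex within 1 kb of an own start site, an alternative chosen after seeing the data, ITGA7 and ITGB5 were counted, and 1 of the 2 ITGA7 peaks carried the label of BLOC1S1. An apex inside the gene was found in 7 of the 16, beside 6 of the 10 members and 28.8% of all coding genes. The highest of these peaks lay in intron 1 of ITGA1, of height 37 and width 1442 bp, and the next in intron 5 of ITGAD, at 35. For the others without a peak inside the gene, the nearest peak lay from 8190 bp (ITGA10) to 2980235 bp (ITGAV) away.

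The genes around the receptors were described by 3 lists, chosen with earlier results of these data known. Of 20 genes for integrin ligands, 6 had a labelled peak, close to the share of all coding genes, 30.8%. These peaks had a median height of 23.5 and a median width of 910 bp, beside 26 and 1108 bp for all labelled peaks. ICAM1 and ICAM2, ligands of LFA-1, had the highest, at 39 and 34, and C3 and F11R the lowest, both at 21. Named after their values were seen, ICAM3 and ICAM5 were labelled too, whereas VCAM1, the ligand of VLA-4, and CDH1, the E-cadherin bound by ITGAE, were not. Of 28 genes for the activation of integrins from inside the cell, 17 were labelled (60.7%), beside 30.8% of all coding genes. Their 20 peaks had a median height of 31.5 and a median width of 1513 bp, both above the medians of all labelled peaks. The highest belonged to SHARPIN, an inhibitor of integrin activation, at 62, and to TLN1, whose product talin switches the beta tail to the active state, at 53. MSN, at 16, and RAP1GAP, at 17, had the lowest. Of 34 genes for the complexes that form on bound integrins, 24 were labelled (70.6%), beside the same 30.8%. Their 37 peaks had a median height of 23 and a median width of 974 bp, both below the medians of all labelled peaks. LPXN, a leukocyte relative of paxillin, reached 66 and RHOA, a GTPase of the actin skeleton, reached 58. FGR and NEDD9 had the lowest peaks, at 16.

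**Figure D4:**
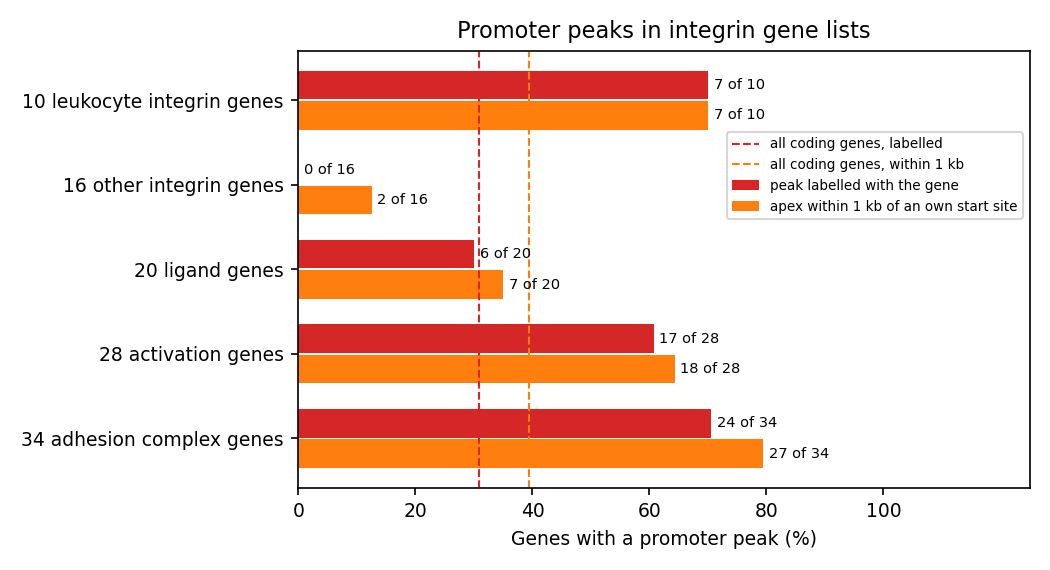
Percentage of genes with a promoter peak in the 10 leukocyte integrin genes and 4 other lists, by label (red) and by an apex within 1 kb of an own start site (orange), with the counts beside the bars. Dashed lines give the shares of all 19535 protein-coding genes, 30.8% and 39.4%. The 16 other integrin genes lie below both lines.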

How the data were processed

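The analysed table lists Cut&Run peaks from induced U937-PR9 cells and the anti-PML-RARA antibody, with no values assigned to single libraries. Per the labels and the paper's methods, the authors used Trimmomatic, Bowtie2 on hg19, SAMtools for PCR duplicates, Bedtools for blacklisted reads and SEACR with the paired control and its norm union setting, and kept peaks at an IDR below 0.05 over 2 replicates. Versions are not given in the sources used here. The deposited columns give the total signal of each peak and, as its SEACR score, the largest signal (here height), as read from the values, since the total was below height times width in all 15412 peaks, and its normalization beyond the SEACR setting is not given in the sources used here. Gene labels are the authors', from UCSC known genes whose promoter the apex overlaps. Of the 15412 peaks, 34 lack the end of the interval of largest signal, and its start was used. None of these is among the 26.

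Positions relative to genes come from GENCODE release 44 mapped to GRCh37, the same build. All peaks lay within its chromosomes, and 6381 of the 6546 symbols occur in it. Protein-coding genes without a symbol were left out. Sequences were read from GRCh37, and that of 1 labelled peak is not reported here. Ranks give ties the same, best rank. The members and lists were chosen with earlier results of these data known, and all results are descriptions without a test. Named are all members, other integrin genes with a peak, and in each further list the 2 genes with the highest and the 2 with the lowest labelled peak, besides genes that mark where a peak lies. ICAM3, ICAM5, VCAM1 and CDH1 fall outside this rule. The choice of unlabelled peaks and the motif search were tested on simulated data. Python 3.11.15, numpy 2.4.6, pandas 2.3.3, scipy 1.17.1 and matplotlib 3.10.9 were used.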

Additional observations from a re-analysis of the deposited data

How the results depend on the processing

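Of 21 alternatives, 17 were counted as close to the main value and 4 as further from it. The 17 still include 13 unlabelled peaks in place of 19 at 25 kb, and 5 or 9 members with a promoter peak in place of 7. The fall of GGGTCA and GAGGAAGT to 0 of the 7 labelled windows at the middle of the peak was not among the 21. With peaks under the median height left out, the rule gave 12 peaks in place of 26, because the list is shorter by construction. Of the 19 unlabelled peaks, 10 had their apex inside a member gene. The share of the 26 windows with GGAAGT was 65.4% in windows of 400 bp, which are longer by construction, beside 42.2% of all peaks. By an apex within 1 kb of an own start site, 2 of the 16 other integrin genes had a promoter peak in place of 0. The alternatives within 1 kb for this and the 3 further lists were chosen after seeing the data. With 25 kb and 100 kb in place of 50 kb, the rule gave 20 and 29 peaks. With neighbours under 1 kb apart counted as 1 it gave 23, and all peaks joined in this way were counted to ITGB2. The nearest unlabelled peaks inside the limit of 50 kb were at 47.6 kb (ITGB2, height 17, width 1257 bp) and 47.3 kb (ITGB1, height 16, width 948 bp), and the first outside it at 74.6 kb (ITGB2, height 27, width 770 bp). No paired analysis was possible because both replicates enter 1 joint list, and none could be left out. Depth and the spread between replicates are unknown, so no difference between 2 peaks can be set against its error.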

Other observations

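Within 50 kb of a labelled integrin peak, 5 peaks carried the label of another gene. Beside ITGB7, RARG had a promoter peak of height 31 and width 2175 bp, and CSAD, an enzyme of taurine synthesis, one of height 53 and width 1737 bp, both larger than the labelled ITGB7 peak. Beside ITGB2, the peak of PTTG1IP had height 43 and width 3310 bp, and that of the noncoding LINC01547 height 17 and width 1225 bp. Beside ITGAL, the peak of DCTPP1 had height 43 and width 798 bp.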
